A study of Mus musculus with 6 samples.

Results

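The genes described here are 45 genes of DNA synthesis, chosen by name from the 54232 genes of the deposited table. They encode the proteins that mark and fire replication origins, the replicative polymerases with their clamp and loader, the enzymes that supply deoxynucleotides, and factors that travel with the fork or rebuild chromatin behind it. The MCM helicase genes were not part of the list. All 45 members passed the filter on low counts, and they were read from a fit over 20327 genes.

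Every cell that divides copies its genome once in S phase. In G1 the origin recognition complex, CDC6 and CDT1 place the MCM helicase on the DNA, and in S phase kinases together with CDC45 and GINS turn that helicase on, after which primase and the polymerases follow the opened strands. In the testis this machinery serves dividing spermatogonia and then the last S phase before meiosis, in preleptotene spermatocytes, and somatic cells of the young testis that still divide use it too.

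The libraries were bulk RNA-seq of whole testes of B6D2F1 mice at postnatal day 12 (P12), an age at which primary spermatocytes are entering meiotic prophase. 3 libraries were labelled Dis3l2 KO and 3 Dis3l2 WT. According to the study's methods, the KO group is a conditional knockout (cKO) in which Stra8-Cre, active in spermatogonia and preleptotene spermatocytes, removes a floxed Dis3l2 allele opposite a null allele, so that somatic cells of the testis keep the floxed copy, and the WT group is littermate controls. By these labels, the comparison asks which transcripts differ in the testis when the cytoplasmic ribonuclease DIS3L2 is lost from germ cells.

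The targeted gene did not separate the groups. Dis3l2 was at 31.6, 25.4 and 27.5 CPM (counts scaled to library size) in KO-labelled libraries, against 25.8, 23.5 and 23.0 CPM in WT libraries, a log2 fold change of 0.22 (95% interval -0.01 to 0.46, edgeR adjusted p = 0.136). Dis3, which encodes the related exosome ribonuclease and is the gene that the series' own design sentence names as deleted, was at 59.1, 64.3 and 68.1 CPM in KO-labelled libraries, against 133, 148 and 137 CPM in WT libraries (log2 fold change -1.13, adjusted p = 2.71e-07). The study also checked the deletion with other assays on P12 testes, which were not analysed here. It reports significantly less Dis3l2 mRNA by quantitative RT-PCR, and less DIS3L2 protein by immunoblot, in cKO than in control testes. By in situ hybridization it reports no Dis3l2 signal in cKO germ cells before or during meiosis. The counts given above do not show the drop in mRNA that RT-PCR found, and the reason for this difference was not tested. In the counts analysed here Dis3l2 was not lower, so the label was not borne out by the counts of its own gene. The group is therefore called KO-labelled throughout. Dis3 was lower, as were 16.5% of all genes tested, and the pan-germ cell markers described below had a median log2 fold change of -1.12. Whether the fall of Dis3 goes with that of these genes was not tested. Counts are summed over each whole gene, and the cells that keep the gene contribute to them. Whether either point bears on the level of Dis3l2 was not tested.

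Depth ran from 33325483 to 44956193 counts per library, and the members' own counts ran from 142 to 9011 per library. The study calls the 3 libraries of each group biological replicates, and the labels do not say which animals they came from, so p-values measure the spread between these libraries. Values below are TMM-scaled CPM in each library, with log2 fold changes of KO-labelled over WT from edgeR's quasi-likelihood test and Benjamini-Hochberg adjusted p over all genes tested, where an adjusted p under 0.05 counts as a call.

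38 of the 45 members were lower in KO-labelled libraries and 0 were higher. Over the whole table, 16.5% of genes tested were lower and 16.2% were higher, and among the 11553 genes at or above the mean level of the lowest member 19.7% were lower. The median log2 fold change of the members was -0.74, against -0.02 over all genes tested, and the single values ran from -1.39 for Orc1 to 0.21 for Pola1, which is 38.1% to 116% of the WT level. At an unadjusted p under 0.05 there were 41 members, of which Pola1 alone was on the higher side, against 8646 of the 20327 genes tested in either direction. DESeq2 called the same 38 members lower and 0 higher, with 16.6% of all genes tested lower.

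The separation between groups was complete for most members. In 41 of 45 the 3 KO-labelled libraries did not overlap the 3 WT libraries, against 45.5% of all genes tested. Only Pole2, Rfc3, Tyms and Chaf1b overlapped. The size of the fall was close to that of other genes called lower, with a median log2 fold change of -0.82 for the 38 called members and -0.76 for all 3347 genes called lower. At least 2-fold lower were 10 of the 38 (26.3%), against 1229 of the 3347 genes called lower (36.7%), which is 6.05% of all genes tested.

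**Figure D1:**
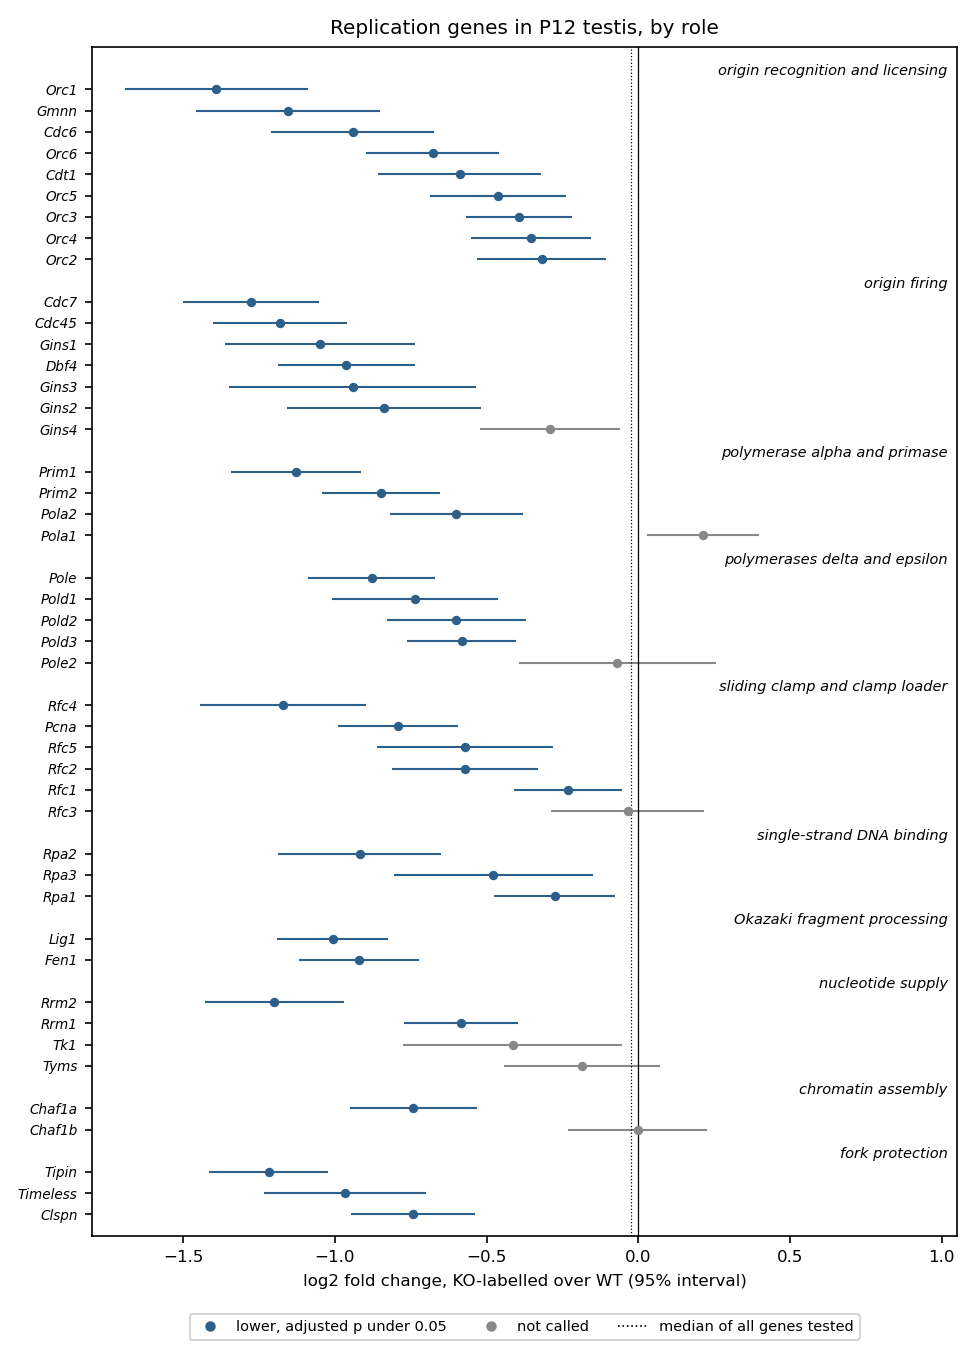
Log2 fold change of each of the 45 members, KO-labelled over WT (x axis, points, with 95% intervals as lines), grouped by role down the page. Points called lower lie left of the dotted median of all genes tested (-0.02), from Orc1 at -1.39 to Rfc1 at -0.23, and Pola1 at 0.21 is the one point on the right of 0.

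The start regions of these genes were read for sequence shared between them, since many S-phase genes are known targets of E2F transcription factors. 37 of the 45 members had a start region in the RefSeq annotation (GRCm38.p6), each taken as 250 bases before to 50 bases after the transcription start. The other members, Rfc2, Gmnn, Gins1, Pole, Tipin, Prim2, Gins2 and Gins4, are named only. An E2F motif was searched as TTTCCCGC, TTTCGCGC, TTTGCCGC or TTTGGCGC on both strands. It was found in 12 of the 37 members (32.4%), against 4.31% of 13057 tested genes with such a window. Among the members called lower 9 of 31 held it, and among those not called 3 of 6 did.

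The stretches below are shown because they carry that motif upstream of the start, first in members that were lower and then in Pola1 and Rfc3, which were not. Each runs 5′ to 3′ on the gene's own strand, with the motif in capitals.
Orc1, chr4:108579405-108579453, plus strand: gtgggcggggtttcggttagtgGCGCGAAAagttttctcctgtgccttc
Cdc6, chr11:98907991-98908042, plus strand: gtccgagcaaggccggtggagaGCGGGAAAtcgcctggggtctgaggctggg
Gins3, chr8:95633496-95633547, plus strand: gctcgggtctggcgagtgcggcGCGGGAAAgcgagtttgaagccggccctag
Orc3, chr4:34614954-34615005, minus strand: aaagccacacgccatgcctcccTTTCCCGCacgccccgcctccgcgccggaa
Pola1, chrX:93632264-93632315, minus strand: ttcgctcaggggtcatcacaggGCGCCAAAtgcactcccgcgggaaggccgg
Rfc3, chr5:151651209-151651240, minus strand: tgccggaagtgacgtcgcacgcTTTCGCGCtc

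The motif began 27 bases before the start in Orc1, 41 in Gins3 and Orc3, 138 in Cdc6 and Pola1, and 10 in Rfc3, whose window held another match that began at the start itself. In Lig1, Clspn, Pold3, Pold1, Cdt1 and Pole2 the match lay after the start. The other letters searched were nearer to their background. CCAAT stood in 19 of 37 members (51.4%), against 42.4% of tested genes, and the cell cycle element TTTGAA in 6 (16.2%), against 14.96%, both strands read in each case. A match of letters is a description of the window and not a binding site.

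Origin recognition and licensing genes were lower in 9 of 9, with a median log2 fold change of -0.59. Orc1, the largest subunit of the complex that sits on origins, was at 9.96, 9.43 and 13.1 CPM in KO-labelled libraries, against 28.0, 31.8 and 25.5 CPM in WT libraries. The log2 fold change was -1.39 (SE 0.14, interval -1.69 to -1.09, adjusted p = 5.49e-06), the lowest among the members. The highest KO-labelled library thus stood well under the lowest WT library.

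The other subunits of the origin recognition complex fell less. Orc6, the smallest subunit, was at 18.3, 19.1 and 19.8 CPM in KO-labelled libraries, against 29.2, 32.8 and 29.5 CPM in WT libraries (log2 fold change -0.68, adjusted p = 0.000157). Orc2, Orc3, Orc4 and Orc5 had log2 fold changes of -0.32, -0.39, -0.35 and -0.46, with adjusted p between 0.00181 and 0.0233. Within this one complex the change therefore ranged from 38.1% of the WT level for Orc1 to 80.2% for Orc2. The call for Orc2 was lost without KO replicate 1 (adjusted p = 0.0895) or WT replicate 2 (0.184), and that for Orc4 without WT replicate 2 (0.0708).

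CDC6 and CDT1 load the helicase, and geminin, the product of Gmnn, binds CDT1 and keeps an origin from being licensed again. Gmnn was at 10.2, 7.54 and 10.5 CPM in KO-labelled libraries, against 21.7, 21.2 and 20.1 CPM in WT libraries (log2 fold change -1.15, SE 0.14, adjusted p = 2.72e-05). Cdc6 was at 12.1, 10.4 and 13.5 CPM in KO-labelled libraries, against 22.03, 22.6 and 24.4 CPM in WT libraries (log2 fold change -0.94, SE 0.13, adjusted p = 5.61e-05). Both the loader and the inhibitor were thus lower, in all 3 libraries, without overlap. Cdt1 was at 18.6, 24.2 and 21.4 CPM in KO-labelled libraries and 31.6, 28.1 and 36.9 CPM in WT libraries, a log2 fold change of -0.59 (adjusted p = 0.00231), with KO replicate 2 closest to the WT libraries.

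Origin firing genes were lower in 6 of 7, with a median log2 fold change of -0.96. Cdc7, the kinase that phosphorylates MCM proteins, was at 25.3, 28.8 and 32.6 CPM in KO-labelled libraries, against 70.8, 75.0 and 64.5 CPM in WT libraries (log2 fold change -1.28, SE 0.10, adjusted p = 7.7e-07). Dbf4, its activating subunit, was at 29.8, 25.8 and 34.6 CPM in KO-labelled libraries, against 58.8, 58.9 and 57.9 CPM in WT libraries (log2 fold change -0.96, SE 0.11, adjusted p = 1.1e-05). The kinase and its activator were both lower, and the WT libraries of Dbf4 lay within about 1 CPM of each other.

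CDC45 and the 4-subunit GINS complex join the MCM ring to form the active helicase. Cdc45 was at 18.6, 21.7 and 21.6 CPM in KO-labelled libraries, against 45.2, 50.9 and 44.4 CPM in WT libraries (log2 fold change -1.18, SE 0.10, adjusted p = 1.41e-06). Gins1, Gins2 and Gins3 had log2 fold changes of -1.05, -0.84 and -0.94, with adjusted p of 7.91e-05, 0.000575 and 0.00152, and were low in every library, Gins3 at 3.91, 5.37 and 5.76 CPM in KO-labelled libraries and 7.72, 10.8 and 10.4 CPM in WT libraries. Gins4 stood apart within its complex. It was at 37.5, 29.3 and 38.3 CPM in KO-labelled libraries, against 43.0, 41.4 and 44.0 CPM in WT libraries, and its log2 fold change of -0.29 (interval -0.52 to -0.06) did not pass the test (adjusted p = 0.0507), although its groups did not overlap. The call was gained with the replicate block (adjusted p = 0.0358) and without KO replicate 1 (0.0459) or KO replicate 3 (0.0315).

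**Figure D2:**
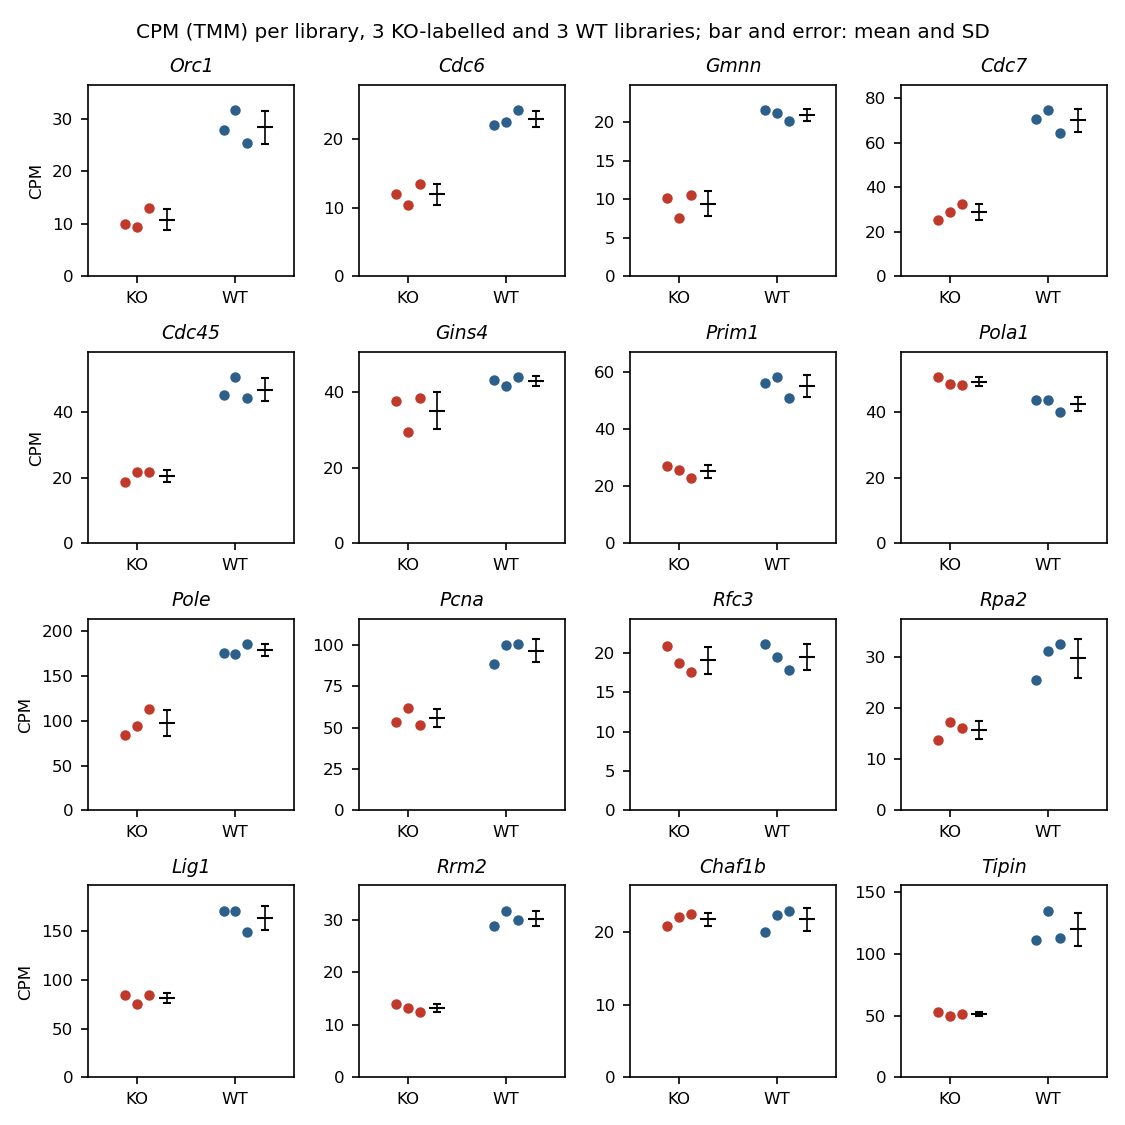
CPM of 16 members in each library (y axis, linear and starting at 0), KO-labelled libraries left and WT libraries right within each panel, with each group's mean and SD (n = 3) as a bar with error beside the points. In Orc1 the 3 KO-labelled values span 9.43 to 13.1 CPM and the WT values 25.5 to 31.8 CPM, while in Chaf1b the groups lie on top of each other.

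Polymerase alpha and primase lay down the RNA-DNA primers of both strands, and 3 of their 4 subunits were lower. Prim1, the catalytic primase subunit, was at 27.3, 25.8 and 22.8 CPM in KO-labelled libraries, against 56.4, 58.5 and 51.0 CPM in WT libraries (log2 fold change -1.13, SE 0.10, adjusted p = 1.61e-06). Prim2, the large primase subunit, was at 30.1, 32.3 and 31.8 CPM in KO-labelled libraries and 53.7, 61.4 and 54.5 CPM in WT libraries (log2 fold change -0.85, adjusted p = 9.51e-06). Pola2, the accessory subunit of the polymerase, was at 27.2, 27.6 and 23.9 CPM in KO-labelled libraries and 36.2, 40.6 and 42.4 CPM in WT libraries (log2 fold change -0.60, adjusted p = 0.00041).

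Pola1, the catalytic subunit, went the other way. It was at 50.7, 48.4 and 48.3 CPM in KO-labelled libraries, against 43.6, 43.7 and 39.9 CPM in WT libraries, so that all KO-labelled libraries lay above all WT libraries. The log2 fold change was 0.21 (SE 0.09, interval 0.03 to 0.40) and did not pass the test (adjusted p = 0.0738). With factors set by somatic marker genes it was -0.27 (adjusted p = 0.0507). Pola1 is the one member on the X chromosome.

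Polymerases delta and epsilon extend the primers, and 4 of 5 members were lower. Pole, the catalytic subunit of the leading-strand polymerase, was at 84.5, 93.8 and 113 CPM in KO-labelled libraries, against 175, 175 and 186 CPM in WT libraries (log2 fold change -0.88, SE 0.10, adjusted p = 1.23e-05). Pold1, the catalytic subunit of polymerase delta, was at 20.1, 28.4 and 23.9 CPM in KO-labelled libraries, against 37.1, 37.9 and 45.7 CPM in WT libraries (log2 fold change -0.74, adjusted p = 0.000492). Both catalytic subunits were thus lower without overlap, and so were the accessory subunits Pold2 and Pold3 of polymerase delta. Pold3 was at 64.4, 65.1 and 60.9 CPM in KO-labelled libraries, against 93.9, 103 and 88.2 CPM in WT libraries (log2 fold change -0.58, adjusted p = 0.000108), and the log2 fold change of Pold2 was -0.60 (adjusted p = 0.000592). Pold4, a further accessory subunit that is not among the 45 genes, overlapped between groups (log2 fold change 0.15, adjusted p = 0.563).

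Pole2, the second subunit of polymerase epsilon, showed no difference that could be detected. It was at 10.1, 7.87 and 8.12 CPM in KO-labelled libraries, against 9.50, 9.22 and 8.63 CPM in WT libraries, with a log2 fold change of -0.07 (interval -0.39 to 0.26, adjusted p = 0.766). The catalytic subunit's change of -0.88 lies outside that interval. In the annotation 8.5% of the exon bases of Pole2 are shared with the gene Gm49384 on the same strand, and reads that fall on 2 genes were not counted.

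The sliding clamp and its loader were lower in 5 of 6. Pcna, the clamp that holds polymerases on DNA, was at 53.7, 61.9 and 51.7 CPM in KO-labelled libraries, against 88.7, 100.1 and 101 CPM in WT libraries (log2 fold change -0.79, SE 0.09, adjusted p = 1.8e-05). The mouse genome also holds Pcna pseudogenes, and reads that fit several places were left out of the counts. Pcna-ps2 itself had 102 to 152 raw counts in KO-labelled libraries and 193 to 223 in WT libraries.

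Replication factor C opens the clamp, and its 5 subunits did not move alike. Rfc4 was at 14.6, 15.9 and 18.9 CPM in KO-labelled libraries, against 37.1, 42.2 and 32.0 CPM in WT libraries (log2 fold change -1.17, SE 0.13, adjusted p = 1.07e-05). Rfc2 was at 22.3, 19.6 and 26.1 CPM in KO-labelled libraries, against 33.8, 33.0 and 34.2 CPM in WT libraries (log2 fold change -0.57, adjusted p = 0.00127), and Rfc5 had the same log2 fold change of -0.57 (adjusted p = 0.00476). Rfc3 lay at 20.9, 18.7 and 17.5 CPM in KO-labelled libraries, against 21.2, 19.5 and 17.9 CPM in WT libraries, and the groups overlapped (log2 fold change -0.04, interval -0.29 to 0.22, adjusted p = 0.85).

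Rfc1, the large subunit, had the highest CPM of the members in every library. It was at 159.9, 166 and 189 CPM in KO-labelled libraries, against 199.8, 212 and 193 CPM in WT libraries. Its log2 fold change of -0.23 passed the test narrowly (adjusted p = 0.0433), and the call was lost without KO replicate 1, KO replicate 2, WT replicate 1 or WT replicate 2 (adjusted p of 0.148, 0.167, 0.116 and 0.212).

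RPA coats single-stranded DNA, and its 3 subunits were all lower, unequally. Rpa2, the subunit that checkpoint kinases phosphorylate, was at 13.9, 17.3 and 16.2 CPM in KO-labelled libraries, against 25.5, 31.3 and 32.7 CPM in WT libraries (log2 fold change -0.92, SE 0.13, adjusted p = 6.82e-05). Rpa1, the large DNA-binding subunit, was at 47.1, 51.4 and 47.3 CPM in KO-labelled libraries and 53.0, 58.8 and 64.7 CPM in WT libraries (log2 fold change -0.28, adjusted p = 0.035). Rpa3, the smallest subunit, was at 8.47, 10.4 and 9.06 CPM in KO-labelled libraries and 12.1, 15.4 and 11.4 CPM in WT libraries (log2 fold change -0.48, adjusted p = 0.0264).

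The calls for Rpa1 and Rpa3 depended on which libraries were in the fit. That for Rpa1 was lost when any library but WT replicate 1 was left out (adjusted p of 0.0553 to 0.155), and that for Rpa3 was lost without KO replicate 1 (0.0828), KO replicate 3 (0.0574) or WT replicate 2 (0.185). RPA also coats the resected DNA ends of meiotic recombination, and its genes are therefore not markers of S phase alone.

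Okazaki fragments are finished by the flap endonuclease FEN1 and DNA ligase 1. Lig1 was at 84.8, 75.3 and 84.7 CPM in KO-labelled libraries, against 171, 172 and 149.7 CPM in WT libraries (log2 fold change -1.01, SE 0.09, adjusted p = 1.04e-06). Fen1 was at 23.5, 23.3 and 25.2 CPM in KO-labelled libraries, against 47.7, 44.0 and 44.7 CPM in WT libraries (log2 fold change -0.92, SE 0.09, adjusted p = 5.21e-06). Lig1 was thus at 49.7% of the WT level and Fen1 at 52.8%, with little spread inside either group.

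Nucleotide supply genes were lower in 2 of 4. Rrm2, the small subunit of ribonucleotide reductase that is made in S phase, was at 13.9, 13.2 and 12.4 CPM in KO-labelled libraries, against 28.9, 31.8 and 29.98 CPM in WT libraries (log2 fold change -1.20, SE 0.11, adjusted p = 1.83e-06). Rrm1, the large subunit, was at 99.3, 115 and 107 CPM in KO-labelled libraries, against 156, 177 and 149 CPM in WT libraries (log2 fold change -0.58, SE 0.09, adjusted p = 0.000152). Both subunits were lower without overlap.

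The genes that make thymidylate did not pass the test. Tyms, thymidylate synthase, was at 22.9, 17.1 and 19.6 CPM in KO-labelled libraries, against 23.3, 21.8 and 22.8 CPM in WT libraries (log2 fold change -0.19, interval -0.44 to 0.07, adjusted p = 0.263), and KO replicate 1 lay within the WT range. Tk1, the salvage enzyme thymidine kinase, was at 5.09, 4.65 and 4.56 CPM in KO-labelled libraries, against 5.96, 6.07 and 6.996 CPM in WT libraries (log2 fold change -0.41, interval -0.78 to -0.05, adjusted p = 0.0751). The libraries of Tk1 did not overlap, but its interval is wide at this level.

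CAF-1 places new histones H3 and H4 on replicated DNA, and its 2 subunits in the list differed. Chaf1a was at 25.4, 22.3 and 26.2 CPM in KO-labelled libraries, against 41.7, 40.1 and 41.8 CPM in WT libraries (log2 fold change -0.74, SE 0.10, adjusted p = 4.9e-05). Chaf1b was at 20.7, 21.99 and 22.4 CPM in KO-labelled libraries, against 19.9, 22.3 and 22.9 CPM in WT libraries (log2 fold change -0.0019, interval -0.23 to 0.23, adjusted p = 0.992). The fall of Chaf1a lies outside the interval of Chaf1b.

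Fork protection genes were lower in 3 of 3. Tipin was at 53.0, 49.6 and 51.6 CPM in KO-labelled libraries, against 111, 135 and 113 CPM in WT libraries (log2 fold change -1.22, SE 0.09, adjusted p = 2.83e-07), the smallest adjusted p of any member. Timeless, whose product pairs with TIPIN at the fork, was at 15.1, 18.3 and 20.8 CPM in KO-labelled libraries, against 32.7, 34.3 and 38.8 CPM in WT libraries (log2 fold change -0.97, SE 0.12, adjusted p = 4.12e-05). Tipin was thus at 43.0% of the WT level and Timeless at 51.2%. Clspn, the adaptor that passes the ATR signal to CHK1, was at 63.9, 70.2 and 81.8 CPM in KO-labelled libraries, against 124, 126 and 112 CPM in WT libraries (log2 fold change -0.74, adjusted p = 4.31e-05).

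Summed over all 45 members, the replication genes took 1478, 1523 and 1587 CPM in KO-labelled libraries, against 2383, 2533 and 2386 CPM in WT libraries. That is 60.7%, 62.6% and 65.2% of the WT mean, and the spread inside each group was small beside the difference. KO replicate 1 was the lowest KO-labelled library in the sum and in 20 members, KO replicate 2 in 15 and KO replicate 3 in 10. By role the sums of the KO-labelled libraries were lowest for Okazaki fragment processing, at 47.0% to 52.5% of the WT mean, and fork protection, at 47.9% to 56.0%. They stood at 70.5% to 77.2% for chromatin assembly, 68.4% to 77.8% for single-strand DNA binding and 69.8% to 78.1% for the clamp and its loader. CPM sums are weighted toward the genes with most reads.

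**Figure D3:**
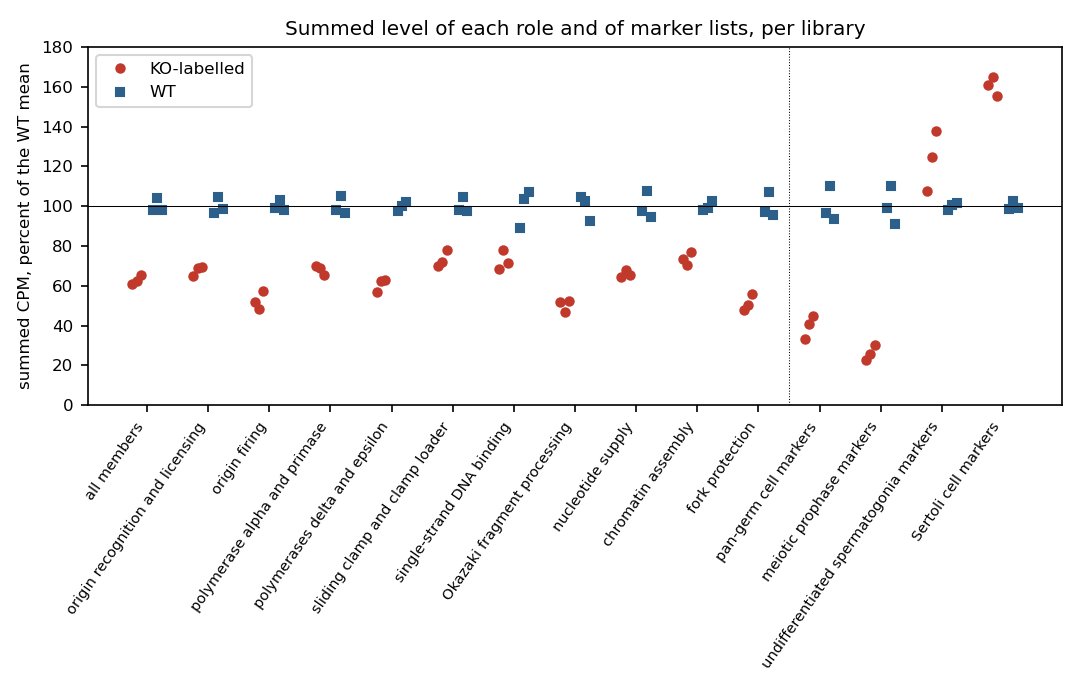
Summed CPM of each list in each library as percent of the WT mean (y axis), KO-labelled libraries left of WT libraries. The members' sum lies at 60.7% to 65.2% in KO-labelled libraries, the meiotic prophase markers at 22.6% to 30.2% and the Sertoli cell markers at 155% to 165%.

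Levels of different genes were compared per kilobase of the deposited gene length. In KO-labelled libraries Rfc1 at 28.5 ± 2.53 CPM per kb, Tipin at 27.5 ± 0.917 and Gins4 at 26.0 ± 3.68 were highest, and these lay within their spread of each other. In WT libraries Tipin was highest at 64.0 ± 7.12 CPM per kb (SD, n = 3), followed by Pcna at 40.2 ± 2.84, Lig1 at 38.5 ± 2.93, Rfc1 at 33.5 ± 1.59 and Gins4 at 31.8 ± 0.975. Tipin thus did not stand above the rest in KO-labelled libraries, as it did in WT libraries. Pcna and Lig1, next in the WT order, did not differ beyond their spread.

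In KO-labelled libraries Tk1, Gins3 and Cdc6 had the lowest levels, and in WT libraries Tk1, Pole2 and Gins3. Gins3 was at 1.85 ± 0.361 CPM per kb in KO-labelled libraries and 3.55 ± 0.615 in WT libraries, and Pole2 at 3.02 ± 0.423 in KO-labelled and 3.17 ± 0.155 in WT libraries. Orc1 stood at rank 38 of 45 in KO-labelled against rank 30 in WT libraries, Rrm2 stood at rank 30 in KO-labelled against rank 23 in WT libraries, and Pola1 at rank 25 in KO-labelled against rank 37 in WT libraries. The scale per kilobase counts the whole annotated exon length, which can exceed the transcript in use.

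**Figure D4:**
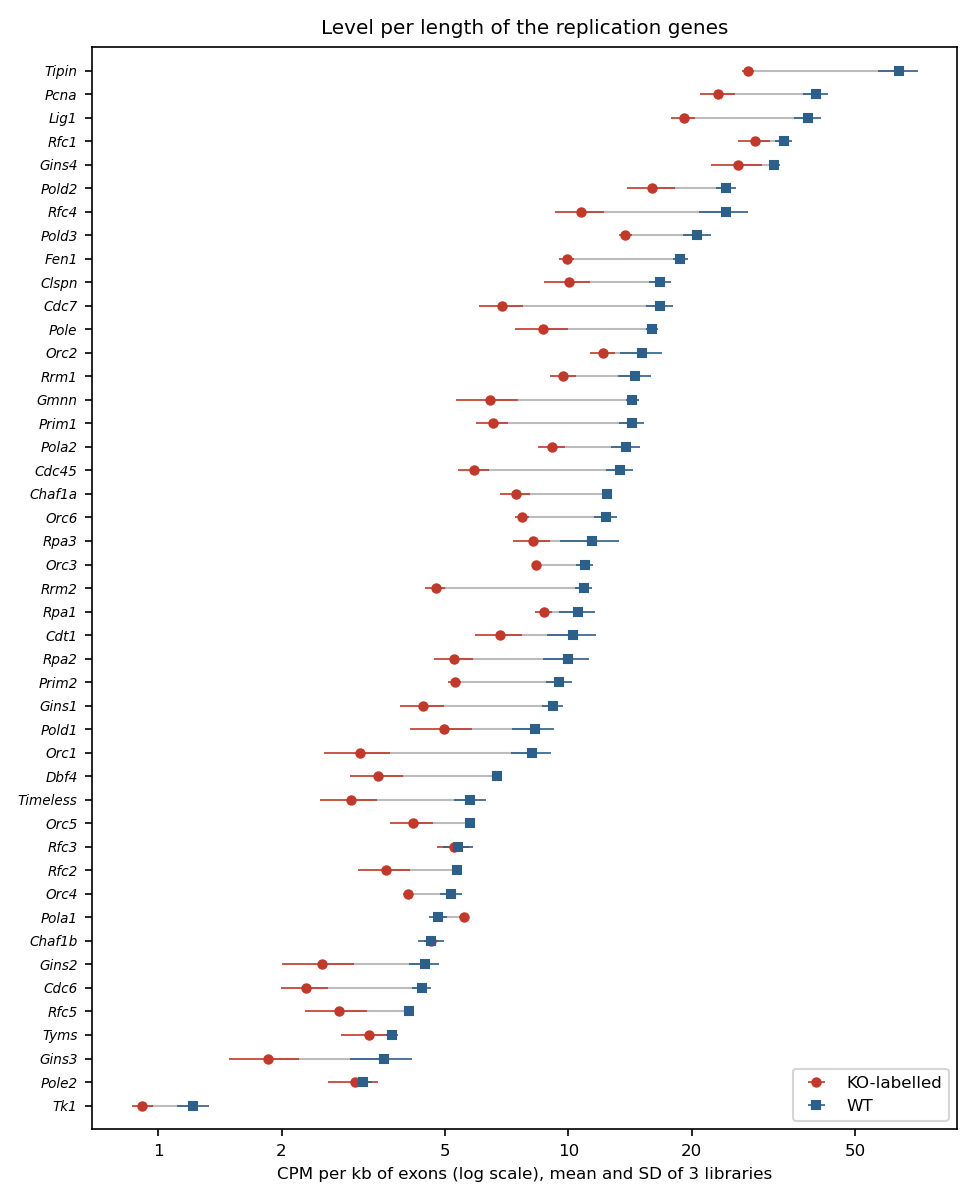
Level of each member in CPM per kb (x axis, log scale) as mean and SD of 3 KO-labelled and of 3 WT libraries, ordered by the WT mean down the page. Tipin is at 27.5 CPM per kb in KO-labelled libraries, against 64.0 CPM per kb in WT libraries, where it is highest, while for Pole2, Rfc3 and Chaf1b the 2 means lie almost on each other.

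Ratios between partners show whether members of a pair fell by the same amount. The ratio of Rrm2 to Rrm1 per length was 0.556, 0.457 and 0.459 in KO-labelled libraries, against 0.737, 0.712 and 0.802 in WT libraries. The ratio of Cdc6 to Orc1 was 0.807, 0.731 and 0.685 in KO-labelled libraries, against 0.524, 0.473 and 0.636 in WT libraries. In neither pair did the groups overlap, with Rrm2 lower relative to Rrm1 and Cdc6 higher relative to Orc1 in KO-labelled libraries.

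6 such pairs were compared by an exact two-sided permutation test over the 20 arrangements of the libraries, whose smallest possible p is 0.1, so no pair could pass 0.05. That p was reached by Rrm2 over Rrm1 and Cdc6 over Orc1 (each adjusted p = 0.3). The ratio of Cdt1 to Gmnn was 0.848, 1.498 and 0.949 in KO-labelled libraries, against 0.681, 0.620 and 0.856 in WT libraries (exact p = 0.2), with KO replicate 2 far above the others and KO replicate 1 just under the highest WT library. Dbf4 over Cdc7, Timeless over Tipin and Pole over Pold1 overlapped between groups as well (exact p of 0.2, 0.3 and 0.6).

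A further 58 genes of replication, none of them a member, gave the wider picture of the pathway. Of these 34 were lower (58.6%), 3 were higher and 21 did not pass, against 16.5% lower and 16.2% higher over all genes tested. Their median log2 fold change was -0.39. In 37 (63.8%) the groups did not overlap, against 45.5% of all genes tested. Initiation and fork genes were lower in 9 of 13 and higher in 1, further polymerase and loader subunits lower in 5 of 8, checkpoint genes lower in 5 of 9, and chromatin genes lower in 4 of 7. Nucleotide genes were lower in 4 of 8 and higher in 1, and genes of E2F and RB family regulators lower in 7 of 13 and higher in 1.

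Within that wider list the lowest was Asf1b, a chaperone that hands histones to CAF-1. It was at 18.2, 18.7 and 20.9 CPM in KO-labelled libraries, against 64.6, 66.2 and 64.4 CPM in WT libraries (log2 fold change -1.76, adjusted p = 1.1e-08). Ticrr, which brings CDC45 to origins, was at 22.5, 25.6 and 27.5 CPM in KO-labelled libraries, against 78.4, 87.1 and 83.1 CPM in WT libraries (log2 fold change -1.72, adjusted p = 2.09e-08). These changes were larger than that of any member. Both genes act beside members, Ticrr with Cdc45 and Asf1b with the CAF-1 subunits. Of these subunits Chaf1a was lower (log2 fold change -0.74) and Chaf1b did not differ (-0.0019).

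E2f2, an activating E2F factor, was lower, with a fold change of -1.30 on the log2 scale (adjusted p = 2.67e-05). On the higher side, Mthfd1, a folate enzyme that feeds thymidylate and purine synthesis, was at 65.5, 63.0 and 58.0 CPM in KO-labelled libraries, against 45.6, 39.5 and 45.4 CPM in WT libraries (log2 fold change 0.52, adjusted p = 0.000593). Rbl2, the RB-related protein p130 of resting cells, and Top1, topoisomerase I, had log2 fold changes of 0.33 (adjusted p = 0.00531) and 0.23 (adjusted p = 0.0465). None of these 3 was higher with factors set by somatic markers.

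**Figure D5:**
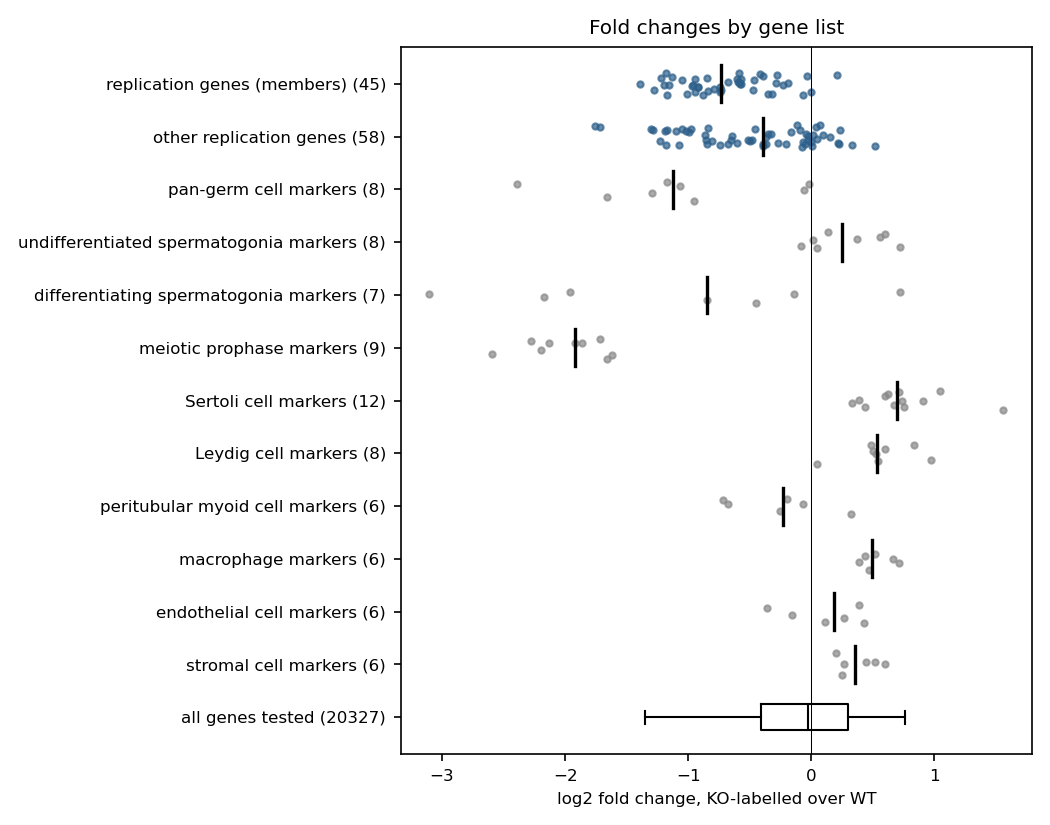
Log2 fold changes, KO-labelled over WT, on the x axis, with 1 point a gene and a bar at the median for each list down the page, and for all genes tested a box of the quartiles with whiskers at percentiles 5 and 95. The members have a median of -0.74, the further replication genes -0.39, meiotic prophase markers -1.92 and Sertoli cell markers 0.69.

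RNA of a whole testis mixes cell types, so fewer replicating cells and less RNA of these genes per cell cannot be told apart in these libraries. Germ cell markers moved with the members. Pan-germ cell markers were lower in 6 of 8 (median log2 fold change -1.12), with summed levels of 499 to 671 CPM in KO-labelled libraries and 1397 to 1646 CPM in WT libraries, and meiotic prophase markers were lower in 9 of 9 (median -1.92), with sums of 249.9 to 334 CPM in KO-labelled libraries and 1006 to 1221 CPM in WT libraries. The KO-labelled libraries had the same order in both sums as in the members' sum, KO replicate 1 lowest and KO replicate 3 highest. That order was not particular to lists that fell. It also held for undifferentiated spermatogonia markers, whose sums were higher (107.8%, 124.8% and 137.6% of the WT mean). Differentiating spermatogonia markers had it too, while Leydig cell and macrophage markers had the reverse order. The part of germ cell markers in the result was not tested.

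Defining genes show the same contrast. Ddx4, present in all germ cells, was at 54.1, 59.8 and 64.3 CPM in KO-labelled libraries, against 151, 158 and 129 CPM in WT libraries (log2 fold change -1.30). Stra8, which is switched on at entry into meiosis, was at 23.1, 33.6 and 43.4 CPM in KO-labelled libraries, against 153, 159 and 140 CPM in WT libraries (log2 fold change -2.17), and Sycp3, of the synaptonemal complex, had a log2 fold change of -2.13. RNA of all 3 genes was present in both groups. The members' median of -0.74 lies above the medians of both germ cell lists.

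Spermatogonial markers were less uniform. Those of undifferentiated spermatogonia were lower in 0 of 8 and higher in 3 (median log2 fold change 0.25, sums of 306 to 391 CPM in KO-labelled and 278 to 289 CPM in WT libraries). With factors set by somatic markers 2 of these 8 were lower and 0 higher, so that their direction depends on the scaling. Markers of differentiating spermatogonia, a list that holds Stra8, were lower in 4 of 7 and higher in 1 (median -0.84). Their sums were 457 to 527 CPM in KO-labelled libraries and 686 to 721 CPM in WT libraries. Ccnd2 was the higher one (log2 fold change 0.72), while Kit (-0.14, adjusted p = 0.152) and Sohlh1 (-0.45, adjusted p = 0.0546) did not pass.

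Markers of somatic cells were mostly higher or not called. Sertoli cell markers were higher in 12 of 12 (median log2 fold change 0.69, sums of 11987 to 12729 CPM in KO-labelled and 7606 to 7914 CPM in WT libraries), among them Amh at 171, 205 and 177 CPM in KO-labelled libraries, against 56.1, 51.5 and 79.9 CPM in WT libraries. Leydig cell markers were higher in 6 of 8, Cyp11a1 with a log2 fold change of 0.97, macrophage markers in 5 of 6, and endothelial and stromal markers in 2 of 6 each, while peritubular myoid markers were lower in 3 of 6. Factors set by somatic markers centre the summed counts of all these markers by construction, and not each list. With them 3 Sertoli, 2 Leydig and 0 macrophage markers were higher. In the same fit 5 peritubular myoid, 3 endothelial and 1 Leydig marker were lower. Single libraries weighed on the smaller lists, with 2 macrophage markers higher without KO replicate 1 or WT replicate 2, 1 stromal marker without KO replicate 1, 1 endothelial marker without KO replicate 1, WT replicate 1 or WT replicate 3, and 1 peritubular marker lower without KO replicate 2. The stromal sum of KO replicate 1, 7092 CPM, stood above those of KO replicates 2 and 3 at 4511 and 4659 CPM. Without that library 35 members were lower, with 13.9% of all genes tested lower.

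Scaling by the somatic markers asks the same question per RNA of those markers. Their sum is weighted toward Sertoli and stromal genes. In KO-labelled libraries these had mean sums of 12378 and 5421 CPM, against 202 CPM for macrophage markers. With library factors from the summed counts of 44 somatic markers, 44 of 45 members were lower, all but Pola1, and the median log2 fold change of the 45 was -1.22. In that fit 47.1% of all genes tested were lower. The same scaling moved the median of all genes by -0.49. A change of library factors shifts all genes by nearly the same amount. That the members lay 0.71 under the median of all genes in both scalings follows from this and is no separate support.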

How the data were processed

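Raw gene counts were deposited by the authors for 6 libraries of P12 mouse testis. Reads were trimmed with cutadapt, aligned with HISAT2 to a build that the labels call GRCm38.p5 (mm10 in the paper) and counted on 1 strand with featureCounts 1.6.4 over GENCODE M18, without reads that fit several places or genes. The table gives total exon length per gene, and 0 columns with values of a library were set aside. Symbols came from GENCODE M21 for 54079 of 54232 identifiers.

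Counts of the 3 KO-labelled and 3 WT libraries went into glmQLFit and glmQLFTest of edgeR 4.0.16 after filterByExpr and TMM scaling, under R 4.3.3. SE was taken as the absolute log2 fold change over the square root of F, and 95% intervals use 14.49 degrees of freedom. Log2 CPM carry a prior count of 1. Python 3.11.15 with pandas 2.3.3, scipy 1.17.1 and matplotlib 3.10.9 did the rest, and the fit was tested on simulated data. Alternatives were DESeq2 1.42.0, RLE factors, factors from somatic markers, keeping low counts, a minimum of 10 counts per library, a replicate block and each library left out.

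The members and lists were chosen with earlier results of these data known. Values in each library are given for the 3 members of each role with the smallest adjusted p among those lower, and for members of a complex or pair that did not pass. Those of Orc6, Gins3, Pola1, Pole2, Tyms, Tk1, Rfc1 and Cdt1, the pairs and the mention of Pold4 were chosen after the values had been seen. Of the further replication genes the 3 lowest and 3 highest called are named. Replicates differed by more than sampling noise (smallest chi-square per degree of freedom 10.0). Proteins of these genes were not analysed here. The study reports significantly less RPA2 protein by immunoblot in P12 cKO testes. It also lists DNA replication among the processes enriched in downregulated transcripts of its bulk RNA-seq.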

Additional observations from a re-analysis of the deposited data

How the results depend on the processing

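The count of members called lower was 38, 37 with RLE factors, 44 with somatic factors, 36 without a filter on low counts, 39 with at least 10 counts in every library and 33 to 37 with 1 library left out, fewest without WT replicate 2, and 0 were higher in each of these. Of all genes tested, 16.5% were lower in the main fit, 15.9% with RLE factors and 47.1% with somatic factors. The share was 7.96% without a filter, 19.3% with at least 10 counts and 12.2% to 15.4% with 1 library left out. Same-numbered libraries did not deviate together (correlations across genes of -0.0014, -0.0126 and 0.0139), and with the replicate block 39 members were lower, Gins4 being added (adjusted p = 0.0358), with 34 further replication genes lower and 3 higher, and 3290 genes of the table lower and 3271 higher.

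Factors from somatic markers moved the most: 53 further replication genes were lower and 0 higher, 9579 genes of the table were lower and 280 higher, and the members' median was -1.22. Pola1 changed sign there (-0.27), and Pole2, Rfc3, Tyms, Tk1 and Chaf1b were then lower. The scaling itself shifted the median of all genes by -0.49, and the members' median relative to it was -0.71 in the main fit and with somatic factors. The median of all genes also shifted by -0.30 without a filter, where 42383 genes were tested.

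With 1 library left out, the members' median ran from -0.73 to -0.64, the further replication genes lower from 28 to 34 and higher from 2 to 3, and the genes of the table lower from 2563 to 3338 and higher from 2385 to 3331. Members with values near 0 changed sign: Chaf1b was 0.011 with DESeq2 and with RLE factors, 0.024 without a filter, 1.9e-04 with the replicate block and between -0.062 and 0.057 with a library left out, and in the same fits Pole2 ran from -0.18 to 0.0062 and Rfc3 from -0.10 to 0.030. Rfc1 lost its call with RLE factors (adjusted p = 0.0613) and without a filter (0.112), and Rpa1 without a filter (0.0780). The cause of these changes was not tested. Members at few counts, Gins3 with as few as 142, have the widest intervals.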
